A study of Mus musculus with 2 samples.

Results

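Mitochondria-rich barcodes were droplets in which transcripts of the mitochondrial genome made up over 20% and at most 50% of all unique molecular identifiers (UMIs, the tags that count single RNA molecules). A member also needed at least 200 genes, under 2% of its UMIs from 6 hepatocyte genes (Alb, Apoa1, Ttr, Fabp1, Apoc3 and Serpina1a), and a barcode sequence that did not recur in the other library with over 5 times the UMIs. By these limits 6427 of 18633 barcodes were members. They were set against barcodes that met the same limits at a mitochondrial share of at most 20%. The members were therefore chosen on a measured value, and their mitochondrial share is a description and not a result.

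The barcodes came from liver cells of 1 Spta sph/sph mouse and 1 Spta wt/wt littermate, both untreated males of 8 to 10 weeks. Spta encodes the alpha chain of spectrin, a protein of the red cell membrane skeleton, and the sph allele leaves red cells fragile. After collagenase perfusion, and with the pellets of slow centrifugation discarded, cells carrying F4/80, a surface protein of mouse macrophages, were pulled down with magnetic beads, and 10000 cells per mouse were aimed at. The number that ends each barcode splits the matrix into library 1 and library 2, but no label ties that number to a mouse, so neither library was given a genotype. With 1 mouse per genotype, and cells not being replicates, differences were not tested and none could be checked against replicates. Intervals are exact and 95%, and cover counting error only.

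Mitochondria carry a small genome of their own that encodes subunits of the respiratory chain and 2 ribosomal RNAs, and its transcripts stay inside the organelle. The other subunits of the respiratory chain come from nuclear genes and are made in the cytosol. The mitochondrial share of a droplet is widely used as a measure of cell quality in single-cell data, since a cell that has lost cytosolic RNA keeps its mitochondria for longer, and cell types also differ in how many mitochondria they hold. Kupffer cells, the resident macrophages of the liver sinusoids, take up ageing red cells and recycle their iron.

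Library 1 held 8907 barcodes and 33099802 UMIs, and library 2 held 9726 barcodes and 56947765 UMIs. In library 1, 3876 of the 6546 barcodes that met the limits were mitochondria-rich (59.2%, interval 58.0 to 60.4%), and in library 2, 2551 of 9366 (27.2%, 26.3 to 28.2%). Of the barcodes over 20% and at most 50%, library 1 lost 4 to the gene minimum, 34 to the shared-sequence rule and 12 to the hepatocyte limit, and library 2 lost 1, 7 and 35. A further 1458 barcodes of library 1 and 189 of library 2 lay over 50% and were not members. The libraries shared 955 barcode sequences. Of these, 886 barcodes of library 1 and 51 of library 2 were the shallow copy by the rule of 5 times the UMIs and were left out at every mitochondrial share.

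**Figure D1:**
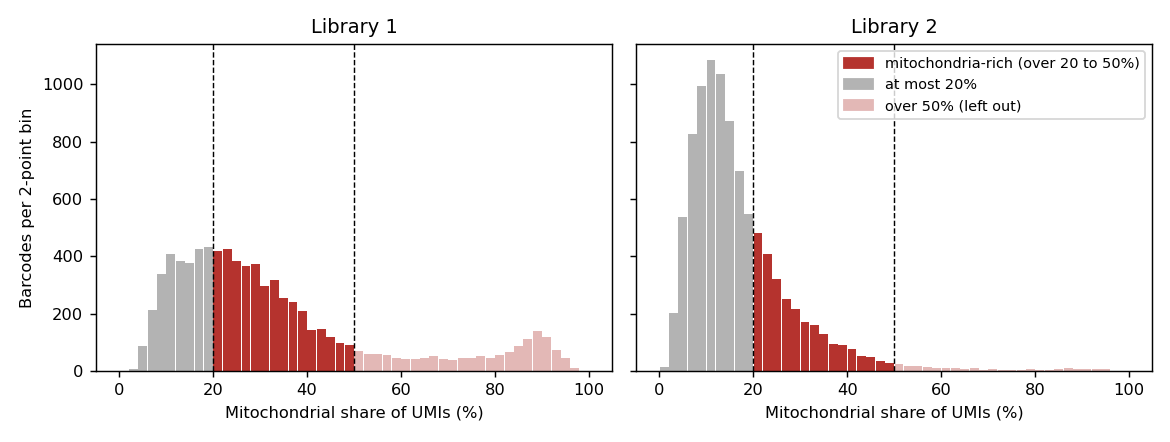
Barcodes (vertical axis, number per 2-point bin) by mitochondrial share of UMIs (horizontal axis, percent) in library 1 and library 2, among barcodes that met the other limits. The dashed lines mark 20% and 50%: library 1 has 3876 barcodes between them and 1420 over 50%, where the counts run on to a second peak of 140 at 88 to 90%, and library 2 has 2551 and 185.

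The limit of 20% cut through one continuous distribution. Just inside it, at 20 to 22%, 71.4% of the library 1 barcodes were Kupffer-type, against 71.9% just outside, at 18 to 20%. The median non-mitochondrial depth was 2089 UMIs just inside and 2508.5 just outside. In library 2 the Kupffer-type share was 64.6% just inside and 71.6% just outside, and the median depth had the other order, with 2408 UMIs just inside and 2354 just outside. Kupffer-type means that Clec4f (a lectin of Kupffer cells), Cd5l (a secreted macrophage protein) and C1qa (a chain of complement C1q) together made up at least 0.8% of all UMIs. The Kupffer panel of 7 markers adds Vsig4, Timd4, Folr2 and Slc40a1. All 7 had UMIs in the summed counts of such barcodes at either mitochondrial share. They also had UMIs in the summed counts of endothelial-type barcodes, so their presence does not set Kupffer-type barcodes apart.

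Mitochondria-rich Kupffer-type barcodes held fewer non-mitochondrial transcripts and more mitochondrial ones. The groups were split on the share of mitochondrial in all UMIs, which itself favours this order, so these depths are a description. In library 1 the 2304 mitochondria-rich Kupffer-type barcodes had a median of 2449 non-mitochondrial UMIs, against 4290 in the 1758 at 20% or below, which is 57.1% of the lower-share value. Their median of mitochondrial UMIs was 1099, against 633.5. Library 2 gave the same order over 1261 and 4236 barcodes, with medians of 3193 against 5084 non-mitochondrial UMIs and 1223 against 713.5 mitochondrial UMIs. The quartiles overlapped widely: in library 1 the non-mitochondrial depth ran from 1386.5 to 4213.25 UMIs in the mitochondria-rich quartiles and from 2195.5 to 6759 in the others. In a droplet, fewer molecules kept by a cell and fewer molecules captured from it cannot be told apart.

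Gene number followed depth. Mitochondria-rich Kupffer-type barcodes had a median of 1483.5 genes against 2166 in library 1, and 1640 against 2174 in library 2. After each barcode was thinned to 1000 non-mitochondrial UMIs, the medians were 730 against 720 genes in library 1 and 673 against 643 in library 2. The thinning left out 318 and 190 shallower barcodes in library 1, and 282 and 928 in library 2.

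The mitochondrial UMIs themselves had nearly the same make-up in both groups. Apart from 22 genes for transfer RNAs, which were left out here, there were 15 mitochondrial genes. Among Kupffer-type barcodes, 12 of the 15 held a share of all mitochondrial UMIs that differed by at most 0.13 on the log2 scale in either library. The 3 others had lower shares in the mitochondria-rich barcodes. The large ribosomal RNA mt-Rnr2 made up 3.66% against 4.32% in library 1 and 2.34% against 2.69% in library 2. mt-Nd6, the only mitochondrial protein gene transcribed from the other strand, stood at log2 ratios of -0.29 and -0.22, and mt-Atp8, a subunit of ATP synthase, at -0.25 and -0.26.

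Every lineage that the marker panels found in number contributed mitochondria-rich barcodes, but in unequal proportion. Kupffer-type was set by the rule's share of all UMIs, and a barcode outside it was placed in another lineage by the share of its non-mitochondrial UMIs in that lineage's markers. Of stellate or fibroblast-type barcodes (cells that store retinoids and make matrix), 85.0% were mitochondria-rich in library 1 (192 of 226, interval 79.6 to 89.4%) and 62.3% in library 2 (119 of 191, 55.02 to 69.2%). Of endothelial-type barcodes (the lining of the sinusoids), 60.4% (429 of 710) and 39.1% (88 of 225) were. Kupffer-type barcodes stood at 56.7% (2304 of 4062) and 22.9% (1261 of 5497), and with their limit on non-mitochondrial UMIs at 60.1% of 4515 and 26.5% of 6056. That change of limit, added after the data were seen, left 84.6% and 55.5% of stellate or fibroblast-type and 58.8% and 33.2% of endothelial-type barcodes mitochondria-rich. In library 2 it kept 66 mitochondria-rich and 53 lower-share stellate or fibroblast-type barcodes, against 119 and 72 before. Near that class's limit of 0.5%, from 0.375% to 0.625%, lay 90 of 3876 mitochondria-rich and 31 of 2670 lower-share barcodes of library 1. In library 2 these were 74 of 2551 and 55 of 6815.

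Monocyte-type barcodes (circulating precursors of macrophages) stood low in both libraries, at 10.6% (16 of 151, interval 6.18 to 16.6%) and 11.7% (13 of 111, 6.39 to 19.2%). Conventional dendritic-type barcodes, which hold cells that present antigen, were mitochondria-rich in 4 of 34 and 5 of 46 cases. T or natural killer-type barcodes were so in 4 of 27 and 4 of 46, and B or plasma-type barcodes in 24 of 66 (36.4%) and 25 of 96 (26.04%). The stellate or fibroblast-type interval thus lay above the monocyte-type interval in each library, while those of T or natural killer, dendritic and monocyte-type barcodes overlapped. Erythroid-type barcodes, the red cell precursors, were almost confined to library 2, where 703 of 2071 (33.9%, 31.9 to 36.0%) were mitochondria-rich, against 4 of 7 in library 1. The classes differed in depth as well: the median was 703 non-mitochondrial UMIs in stellate or fibroblast-type and 4666 in monocyte-type barcodes of library 1. Barcodes with at least 500 non-mitochondrial UMIs were also thinned to that number. This left out 550 mitochondria-rich and 68 lower-share barcodes of library 1, and 2 and 0 of library 2. The mitochondria-rich share was then 81.0% and 62.4% for stellate or fibroblast-type and 54.2% and 39.3% for endothelial-type barcodes in libraries 1 and 2. For monocyte-type barcodes it was 9.09% (interval 1.92 to 24.3%) and 7.14% (0.877 to 23.5%).

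**Figure D2:**
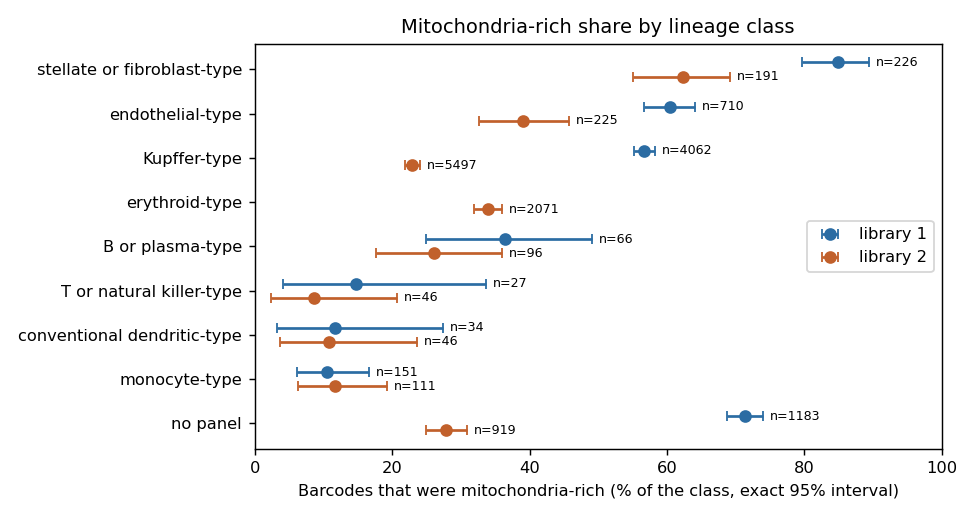
Share of each lineage class that was mitochondria-rich (horizontal axis, percent, with exact 95% intervals), by class (vertical axis), for library 1 and library 2, with the number of barcodes beside each point. Stellate or fibroblast-type barcodes stand highest in both libraries (85.0% and 62.3%) and monocyte, dendritic and T or natural killer-type barcodes lowest, between 8.70% and 14.8%. Classes of fewer than 20 barcodes are not drawn.

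Seen the other way, Kupffer-type barcodes were the largest class of members in both libraries. They were 59.4% of mitochondria-rich against 65.8% of lower-share barcodes in library 1, and 49.4% against 62.2% in library 2. Part of that gap lay in the denominator, because the Kupffer-type limit is a share of all UMIs. By the same limit on non-mitochondrial UMIs, the shares were 70.0% against 67.4% in library 1 and 62.8% against 65.4% in library 2, so the order turned round in library 1. Between 0.6% and 1.0%, close to the Kupffer-type limit, lay 749 of 3876 mitochondria-rich barcodes against 172 of 2670 in library 1, and 535 of 2551 against 924 of 6815 in library 2. Monocyte-type barcodes were 0.413% of mitochondria-rich against 5.06% of lower-share barcodes in library 1, and 0.510% against 1.44% in library 2. Stellate or fibroblast-type barcodes were 4.95% against 1.27%, and 4.66% against 1.06%.

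Barcodes that passed no panel were 21.8% of mitochondria-rich against 12.7% of lower-share barcodes in library 1, and 10.0% against 9.73% in library 2. These shares depended on the Kupffer-type limit. With the limit on non-mitochondrial UMIs, the gap of library 1 narrowed to 12.7% against 11.5%. In library 2, where the shares had been close, they became 4.86% against 8.42%. Members of the rarest classes were 1 plasmacytoid dendritic-type barcode of library 1 and 7 neutrophil-type ones of library 2, and 53 and 70 members passed several panels other than Kupffer. Droplets holding a Kupffer-type signature with another panel were 1.88% against 1.84% of barcodes in library 1 and 10.5% against 11.5% in library 2, and in library 2 the second panel was mostly erythroid (14.6% of mitochondria-rich against 16.4% of lower-share Kupffer-type barcodes). At 45 to 50% mitochondrial UMIs, the Kupffer-type share was 51.4% in library 1 and 13.9% in library 2.

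Among Kupffer-type barcodes, what remained after mitochondrial transcripts were set aside was close to the lower-share profile, with 2 departures. RNA of hepatocyte genes took a larger share, and short transcripts, above all those of ribosomal proteins, took a smaller one. Levels are given as UMIs of a gene per 1000000 non-mitochondrial UMIs (CPM), and log2 ratios are mitochondria-rich over at most 20%. Genes were compared from 50 CPM and 30 UMIs in either group, without the mitochondrial genes and the 9 genes that the rule used. Of 3922 genes compared in library 1, 16 (0.408%) were at least 2-fold higher in mitochondria-rich barcodes with an interval off 0, and 2 (0.051%) at least 2-fold lower. Library 2 had 39 higher (1.11%) and 4 lower (0.114%) of 3517. At 1.5-fold, a threshold added after the ratios were seen, 68 (1.73%) were higher and 15 (0.382%) lower in library 1, and 170 (4.83%) and 91 (2.59%) in library 2. The median over all genes compared was 0.04 in library 1 and 0.16 in library 2.

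The libraries gave similar ratios. Over 3275 genes compared in both, 77.2% had the same direction, and the log2 ratios had a Pearson correlation of 0.78 and a Spearman correlation of 0.71 across genes, which share their libraries' depth and base composition and are not replicates. Of these, all 40 at least 1.5-fold higher in library 1 were so in library 2 as well, which was 26.3% of the 152 of library 2. Of the 13 at least 1.5-fold lower in library 1, 10 were among the 84 of library 2 (76.9% and 11.9%).

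The 12 genes that stood highest in both libraries all encode proteins that hepatocytes make and secrete into blood or urine. Serpina3k, a serine protease inhibitor, had 676 CPM in mitochondria-rich Kupffer-type barcodes against 318 in the others in library 1 (log2 ratio 1.09, interval 1.02 to 1.16), and 322 against 145 in library 2 (1.15, 1.06 to 1.24). Ahsg, which encodes the plasma protein fetuin, had 146.0 against 75.9 CPM in library 1 (0.94) and 122 against 56.4 in library 2 (1.11). These were the only 2 of the 12 at 50 CPM or more in both groups of both libraries. In the lower-share group, 4 of the 12 lay under 50 CPM in library 1 and 10 in library 2, so they were compared only through the group where they stood higher. Vtn, which encodes the adhesion protein vitronectin, was among the 10, with 142 against 62.3 CPM in library 1 (1.19) and 89.9 against 43.7 in library 2 (1.04).

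F2, which encodes prothrombin, stood at log2 ratios of 1.13 and 1.14 in libraries 1 and 2, and plasminogen (Plg) at 1.07 and 1.23. The 3 fibrinogen chains were close to each other, with Fga at 1.06 and 1.07, Fgb at 1.03 and 1.05, and Fgg at 1.08 and 0.94. The phospholipid-binding protein Apoh stood at 1.08 and 1.26. Of the 13 hepatocyte markers outside the limit, 9 of 13 compared in library 1 and 10 of 12 in library 2 were at least 1.5-fold higher, against 1.73% and 4.83% of all genes compared, with medians of 0.67 and 1.07. These markers include Fgb, Mup20 and Ahsg, which were already among the genes that stood highest in both libraries. Fgb and Mup20 were compared in library 2 only through the mitochondria-rich group. The count is therefore a description.

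Counted per Kupffer-type barcode, the 6 hepatocyte genes of the limit gave 8.18 UMIs in the mitochondria-rich group against 6.82 in library 1, and 9.13 against 7.85 in library 2. The hepatocyte panel outside the limit gave 13.9 against 18.7 UMIs in library 1, which is 74.5%, and 11.9 against 16.7 in library 2, which is 70.9%. This panel includes Apoc1, an apolipoprotein gene with a lower level in the mitochondria-rich group (log2 ratios -0.44 and -0.29). Other classes, which should not make these RNAs, held UMIs of the 6 genes as well. They had 5.02 against 4.77 per endothelial-type barcode of library 1 and 7.89 against 8.68 in library 2, 9.16 against 4.53 per stellate or fibroblast-type barcode of library 2, and 7.203 against 4.22 per erythroid-type barcode of library 2. Barcodes of no panel had 5.43 against 3.46 and 8.32 against 4.81. A UMI of these genes was present in 95.3% of mitochondria-rich against 92.8% of lower-share Kupffer-type barcodes of library 1, and in 90.0% against 95.7% of endothelial-type ones, at median depths of 2449 against 4290 and 744 against 2497 non-mitochondrial UMIs. Since the hepatocyte limit set a ceiling on these genes, their values are a description.

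Genes of Kupffer cell identity took nearly the same share in both groups. Without the 3 genes of the rule, the identity list gave 2.85% of non-mitochondrial UMIs in mitochondria-rich against 2.91% in lower-share Kupffer-type barcodes of library 1, and 4.83% against 4.66% in library 2. Of its 25 genes 22 were compared in each library, with a median log2 ratio of 0.01 and 0.06, and 1 passed 1.5-fold, lower, in library 2. Because the rule asked for 3 of the markers, this closeness is in part set by the choice, and with Kupffer-type defined on non-mitochondrial UMIs the median of library 2 was -0.01. In UMIs per barcode these genes stood at 88.5 against 143 in library 1 and 167 against 287 in library 2.

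Marco, Hmox1 and Slc40a1 had near-equal levels, while the list of heme and iron handling genes spread more widely. Its median was -0.02 over 13 of 17 genes in library 1 (-0.30 to 0.91) and 0.14 over 14 in library 2 (-0.59 to 1.15). In library 1, 1 gene was at least 1.5-fold higher, against 1.73% of all genes compared. In library 2, 1 was at least 2-fold higher and 1 at least 1.5-fold lower, against 1.11% and 2.59% of all genes. The list includes Hpx and Trf, which are also markers of the hepatocyte panel. Marco, a scavenger receptor, had 633 against 556 CPM in library 1 (log2 ratio 0.19) and 15540 against 14210 in library 2 (0.13). Hmox1, the enzyme that opens the heme ring, had 1361 against 1153 (0.24) and 10700 against 9115 (0.23). Both ratios turned below 0 in both libraries when scaled to all UMIs, and in library 1 also when shallow copies of shared barcodes were kept, at -0.83 for Marco and -0.04 for Hmox1. Slc40a1, the iron exporter ferroportin, stood at 0.00 in library 1 and 0.11 in library 2, where both other scalings put it below 0.

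The ferritin chains, which store iron, took a smaller share. Fth1 had 3455 against 3882 CPM in library 1 (log2 ratio -0.17) and 15470 against 23340 in library 2 (-0.59, interval -0.60 to -0.58), and Ftl1 stood at -0.25 and -0.43. Timd4, a receptor for dying cells, stood at -0.15 and -0.20, the complement receptor Vsig4 at -0.11 and -0.22, and the folate receptor Folr2 at -0.18 and -0.26. Csf1r, the receptor for the macrophage growth factor, stood at -0.23 and -0.20, with 0.18 in library 2 among barcodes of 1000 to 3000 non-mitochondrial UMIs. C1qb and C1qc, the other chains of complement C1q, stood at -0.43 and -0.10 in library 1 and at -0.63 and -0.35 in library 2. Cd163, the receptor for hemoglobin bound to haptoglobin, and the transcription factor Spic stood at 0.05 and 0.09 in library 1 and at 0.33 and 0.28 in library 2, with Cd163 below 0 in library 1 when scaled to all UMIs.

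Lysosomal genes had a median of -0.07 in library 1 and -0.04 in library 2, with none of 15 past 1.5-fold. The protease Ctsb stood at 0.11 and 0.23 and the saposin precursor Psap at 0.17 and 0.21, all 4 below 0 when scaled to all UMIs. Lyz2, the lysozyme of myeloid cells, stood at -0.36 and -0.46. Class II genes, which present antigen, had medians of -0.21 and -0.38 over 6 of 8 genes: Cd74 had 5323 against 6676 CPM in library 1 (-0.33) and 327 against 525 in library 2 (-0.68), and H2-Aa and H2-Eb1 stood at -0.20 and -0.30 in library 1 and at -0.42 and -0.73 in library 2. Among library 2 barcodes of 1000 to 3000 non-mitochondrial UMIs the class II median was 0.01. In library 1 that median ranged from -0.53 to -0.07 over the alternative settings.

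Ribosomal protein genes made up the largest group with a smaller share. Of 85 such genes 81 were compared in library 1, of which 78 were below 0, against 39.9% of all genes compared, with a median log2 ratio of -0.33. In library 2 79 of 80 were below 0, against 30.3% of all genes, with a median of -0.52. At least 1.5-fold lower were 5 in library 1 and 27 in library 2, against 0.382% and 2.59% of all genes. As a share of non-mitochondrial UMIs they gave 8.15% in mitochondria-rich against 9.87% in lower-share Kupffer-type barcodes of library 1, and 7.41% against 10.3% in library 2. Fau, which encodes a ribosomal protein fused to a ubiquitin-like one, had 1171 against 1759 CPM in library 1 (-0.59) and 1096 against 2001 in library 2 (-0.87). Rpl10, Rpl11, Rpl27, Rpl32, Rpl35, Rps7 and Rps18 lay between -0.66 and -0.58 in library 1 and between -0.90 and -0.64 in library 2. Many ribosomal protein genes have near-identical processed copies that can share reads, so values of single genes are uncertain. At matched depth of 1000 to 3000 non-mitochondrial UMIs the median of the list was -0.17 in library 1 and -0.70 in library 2.

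Nuclear genes for the respiratory chain also took a smaller share of the non-mitochondrial UMIs. Their median was -0.17 in library 1, with 45 of 51 below 0, and -0.35 in library 2, with 43 of 50 below 0, against 39.9% and 30.3% of all genes. At matched depth the medians were -0.09 and -0.65. Cox5b, a subunit of cytochrome c oxidase, had 77.4 against 123 CPM in library 1 (-0.67, interval -0.82 to -0.52) and 200 against 321 in library 2 (-0.68, -0.78 to -0.58). Cox7b, another subunit, stood at -0.54 and -0.83. Of genes of the cytosol and its skeleton, Actb (actin) stood at -0.08 in both libraries, with 0.02 in library 1 at matched depth, while Tmsb4x (an actin-binding peptide) stood at -0.19 and -0.54 and the glycolytic enzyme Gapdh at -0.50 and -0.63. At matched depth Gapdh stood at -0.04 (interval -0.32 to 0.24) in library 1 and -1.09 in library 2, and Cox5b at -0.38 (-0.81 to 0.06) and -0.79.

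**Figure D3:**
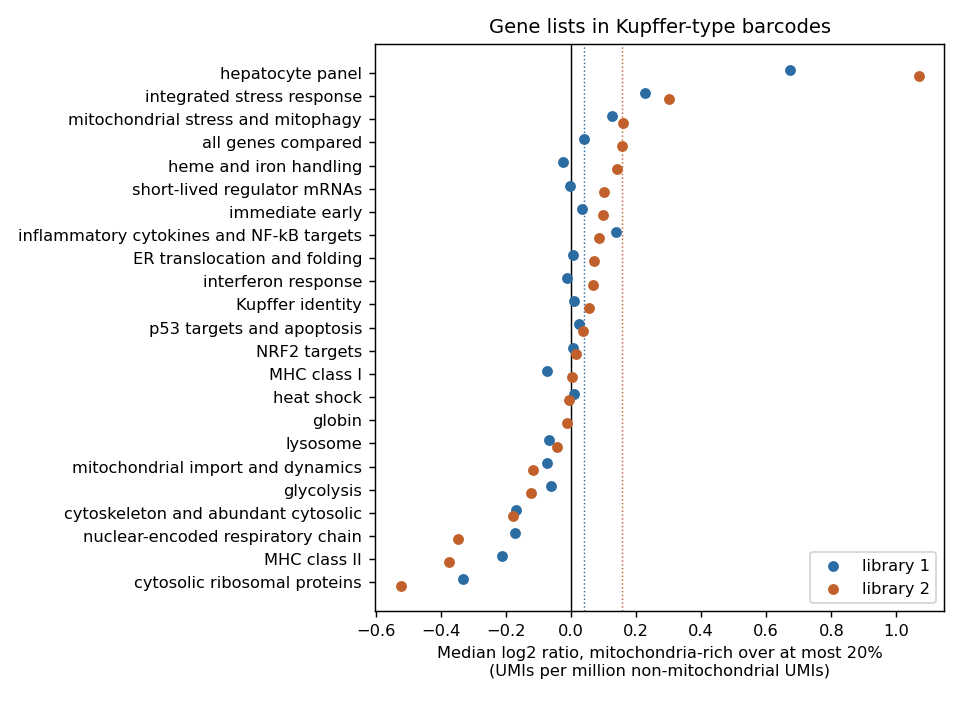
Median log2 ratio of each gene list in Kupffer-type barcodes (horizontal axis, mitochondria-rich over at most 20%, CPM), by list (vertical axis), for lists with at least 3 genes compared; dotted lines are the medians over all genes compared. The hepatocyte panel stands apart on the high side (0.67 and 1.07) and ribosomal proteins lowest (-0.33 and -0.52).

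Few stress genes reached the level needed for a comparison. The integrated stress response list had medians of 0.23 over 3 genes in library 1 and 0.30 over 4 in library 2, out of 12. All were above 0, as were 2358 of 3922 and 2453 of 3517 genes compared. In library 2, 1 of them was at least 1.5-fold higher, against 4.83% of all genes, and 1 lay under the median of all genes. The list's median in library 1 turned below 0 at matched depth and when scaled to all UMIs. Atf4, a transcription factor of this list, had 133 against 113 CPM in library 1 (0.23) and 152 against 98.7 in library 2 (0.62). In library 1 it stood at -0.09 when scaled to all UMIs. Hspa9, a chaperone of the mitochondrial matrix, stood at 0.36 and 0.29. Medians of heat shock genes were 0.01 and -0.01, of immediate early genes 0.03 and 0.10, and of p53 targets and apoptosis genes 0.02 and 0.04, with 1 gene of these 3 lists at least 1.5-fold lower in each library and none higher. RNAs retained in the nucleus were not analysed here.

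Genes with a smaller share tended to be short. By coding length (of each gene's complete transcript best ranked by APPRIS in GENCODE M21), genes of up to 300 nucleotides had a median log2 ratio of -0.16 in library 1 and -0.31 in library 2, and genes of over 4000 nucleotides 0.07 and 0.32. Without ribosomal proteins, the shortest class stood at -0.15 and -0.30. The Spearman correlation of the ratio with coding length was 0.27 across 3900 genes in library 1 and 0.52 across 3505 in library 2, and without ribosomal proteins 0.24 and 0.50. These genes share their libraries and depth, so the values are descriptions. The genes at least 1.5-fold lower had a median coding length of 403.5 nucleotides in library 1 and 384 in library 2, against 1291.5 and 1239 over all genes compared. At matched depth, genes of up to 500 nucleotides stood at -0.07 and those of over 2000 at 0.04 in library 1, and at -0.41 and 0.41 in library 2.

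A pair of such short messages is shown because they stand among the 12 lowest in both libraries and encode no ribosomal protein. Their coding sequences are printed from the GENCODE M21 transcripts on GRCm38, with the start and stop codons in capitals.
Snrpg (small nuclear ribonucleoprotein G, chr6:86371304-86379328, plus strand): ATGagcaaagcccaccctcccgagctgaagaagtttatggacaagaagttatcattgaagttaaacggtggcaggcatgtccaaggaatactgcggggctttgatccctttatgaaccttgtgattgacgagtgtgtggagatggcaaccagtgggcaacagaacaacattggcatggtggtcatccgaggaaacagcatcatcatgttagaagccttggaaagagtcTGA
Ifi27l2a (an interferon-induced protein, chr12:103442167-103443680, minus strand): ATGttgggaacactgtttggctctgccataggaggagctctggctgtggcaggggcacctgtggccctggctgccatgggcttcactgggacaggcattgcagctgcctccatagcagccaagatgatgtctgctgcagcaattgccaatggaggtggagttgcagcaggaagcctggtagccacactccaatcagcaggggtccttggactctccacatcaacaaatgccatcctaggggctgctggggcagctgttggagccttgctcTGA
Snrpg, with 76 codons, had 71.8 against 107 CPM in library 1 (log2 ratio -0.58, interval -0.74 to -0.42) and 54.4 against 88.2 in library 2 (-0.70, -0.90 to -0.51). Ifi27l2a, with 90 codons, had 520 against 795 CPM in library 1 (-0.61, -0.67 to -0.56) and 296 against 470 in library 2 (-0.67, -0.75 to -0.58). At matched depth Snrpg stood at -0.0023 (interval -0.46 to 0.48) in library 1 and at -1.205 in library 2, and Ifi27l2a at -0.36 and -0.79. Of the 12 lowest genes, 7 had an interval off 0 at matched depth in library 1 and all 12 in library 2, and of the 12 highest, 12 and 10 had one.

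**Figure D4:**
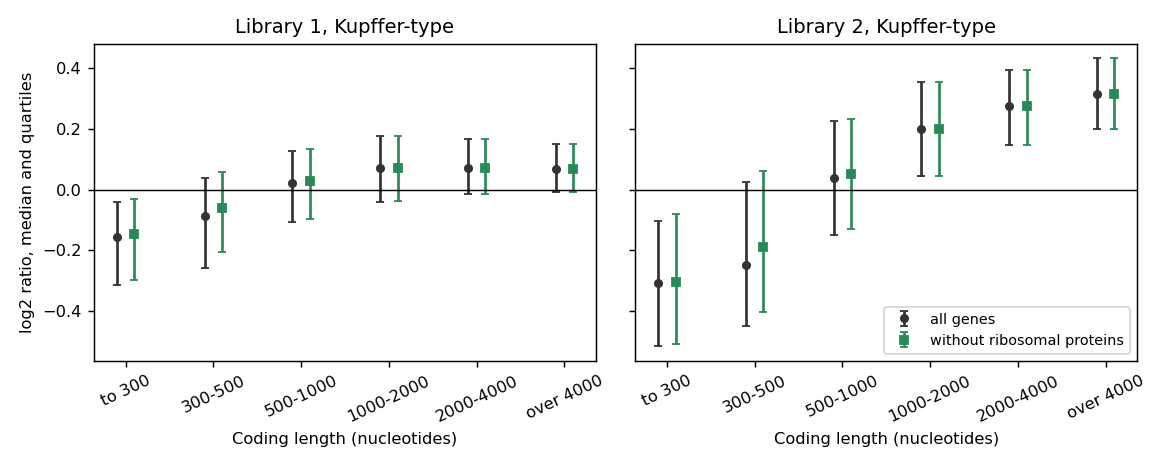
Median log2 ratio of genes in Kupffer-type barcodes (vertical axis, mitochondria-rich over at most 20%; bars span the quartiles of genes) by coding length (horizontal axis, nucleotides), with and without ribosomal protein genes, in library 1 and library 2. The medians lie below 0 up to 500 nucleotides in both libraries and reach 0.07 and 0.32 over 4000 nucleotides.

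Within Kupffer-type barcodes the shares of both gene groups were followed over bins of mitochondrial share. Ribosomal proteins took 10.9% of non-mitochondrial UMIs in library 1 at 5 to 10% mitochondrial share and 7.85% at 40 to 50%, and in library 2 11.2% and 5.63%. The hepatocyte panel outside the limit took 0.391% and 0.548% in library 1, with 0.376% between at 10 to 15%, and 0.256% and 0.524% in library 2, over the same bins. The identity list without the 3 genes of the rule lay between 2.83% and 2.92% in library 1 from 5% to 50%, and between 4.56% and 5.19% in library 2. The floor that the rule sets on its 3 genes is higher, per non-mitochondrial UMI, at a higher mitochondrial share. With the limit on non-mitochondrial UMIs, these identity genes took 2.89% at 5 to 10% and 2.70% at 40 to 50% in library 1, and 4.53% and 4.20% in library 2, where the order of the bins thus turned round. The highest bin held 310 barcodes in library 1 and 42 in library 2.

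**Figure D5:**
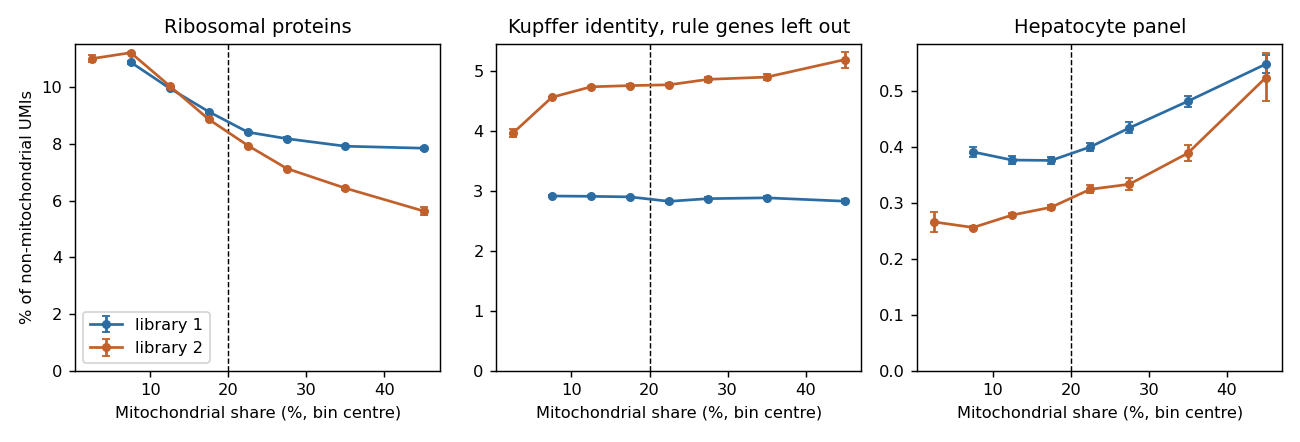
Share of non-mitochondrial UMIs (vertical axis, percent, exact 95% Poisson intervals) taken by ribosomal proteins, Kupffer identity genes without the 3 of the rule, and the hepatocyte panel outside the limit in Kupffer-type barcodes, by mitochondrial share (horizontal axis, percent, bin centre). The dashed line marks 20%. From 5 to 10% to 40 to 50%, ribosomal proteins stand lower (10.9% to 7.85% and 11.2% to 5.63%) and the hepatocyte panel higher (0.391% to 0.548% and 0.256% to 0.524%) in both libraries; the bin of library 1 with 1 barcode is not drawn.

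The genes farthest from 0 in each library taken singly included others; whether their ratios differed between the libraries was not tested. In library 1, Ccr2, a chemokine receptor of monocytes, had 22.8 against 51.9 CPM (log2 ratio -1.18, interval -1.45 to -0.92) and was compared only through the lower-share group. Hbb-bs, an adult beta globin, had 60.5 against 133 CPM there (-1.14, -1.30 to -0.97), and -3.88 with shallow copies of shared barcodes kept. In library 2 Hbb-bs had 24140 against 26530 CPM (-0.14), and its ratio was above 0 among Kupffer-type barcodes without another panel (0.28). Clu, Cyp2f2 and Cyp2d9, a chaperone and 2 enzymes of hepatocytes, stood at 1.13, 1.12 and 1.10 in library 1, and at 0.86, 1.09 and 0.85 in library 2, where they lay under 50 CPM in both groups. Vipr1, a receptor for a gut peptide, stood at 0.46 in library 1 and 1.27 in library 2, and Tdo2, a tryptophan enzyme of hepatocytes, at 0.80 and 1.24. These 5 genes reached 50 CPM in both groups only for Vipr1 and Tdo2 in library 1.

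Among the genes followed, differences between the libraries had the same direction in mitochondria-rich and lower-share Kupffer-type barcodes. Their sizes were close for some genes and not for others. Library 2 over library 1, Marco stood at a log2 ratio of 4.62 in mitochondria-rich and 4.68 in lower-share barcodes, and Hmox1 at 2.98 in both. H2-Aa stood at -4.87 and -4.66, Cd74 at -4.03 and -3.67, Cd163 at -2.30 and -2.58, and Spic at 1.86 and 1.66. Fth1 stood at 2.16 and 2.59. Hbb-bs stood at 8.64 and 7.64, and the chemokine Cxcl13 at -8.71 and -6.04, with 1 UMI of Cxcl13 in mitochondria-rich barcodes of library 2. Each gene kept its direction, and whether these differences go with the genotype was not analysed here.

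Mitochondria-rich endothelial-type barcodes held a smaller share of their own marker RNA and a larger share of hepatocyte RNA in both libraries. These barcodes were placed by a floor of 0.5% on their own panel, so its share is a description. In library 1 their median depth was 744 non-mitochondrial UMIs in mitochondria-rich against 2497 in lower-share barcodes, while mitochondrial UMIs were 346 against 362. Of 4932 genes compared, 349 (7.08%) were at least 2-fold higher and 71 (1.44%) at least 2-fold lower. Their own panel took 1.80% against 2.49% of non-mitochondrial UMIs, while the summed share of the hepatocyte panel was 0.533% against 0.208%. The median share of the Kupffer panel was 0.406% against 0.154%. The Kupffer-type limit on all UMIs sets a higher ceiling on that share in the mitochondria-rich group, and with the limit on non-mitochondrial UMIs the medians were 0.380% against 0.152%. All 13 hepatocyte markers and 12 of 21 Kupffer identity genes compared were at least 2-fold higher. The part of RNA from other cells in these ratios was not tested. Among lower genes, Ednrb, an endothelin receptor, had 53.7 against 222 CPM (log2 ratio -2.05, interval -2.67 to -1.48), and the chemokine Cxcl9 90.7 against 333 (-1.88, -2.35 to -1.43).

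Ribosomal proteins also took a smaller share in endothelial-type barcodes. Their median was -0.30 in library 1 and -0.41 in library 2, with 78 of 81 and 78 of 80 genes below 0. At least 1.5-fold lower were 4 and 20 of them, against 7.68% and 4.81% of all genes compared, so the 4 of 81 in library 1 lay under the share of all genes. In library 2, which held 88 mitochondria-rich and 137 lower-share endothelial-type barcodes, 43 of 3743 genes (1.15%) were at least 2-fold higher and 82 (2.19%) lower, and the endothelial panel took 1.38% against 1.53%. The hepatocyte panel took 0.377% against 0.211% in library 2. The Kupffer panel took 0.712% against 0.431%, and 0.599% against 0.415% with the Kupffer-type limit on non-mitochondrial UMIs. Genes of up to 500 coding nucleotides had medians of -0.28 and -0.24, against 0.10 and 0.04 for those of over 2000.

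Erythroid-type barcodes of library 2 had the highest shares of genes past 2-fold of the classes compared. Mitochondria-rich ones had 2026 non-mitochondrial UMIs against 3130.5, and 988 mitochondrial UMIs against 268. Of 2194 genes compared, 380 (17.3%) were at least 2-fold higher and 543 (24.7%) at least 2-fold lower. Ribosomal proteins had a median of -1.26, with 66 of 79 at least 2-fold lower, and the nuclear respiratory chain -0.86. Among the 5 lowest genes, the linker histone Hist1h1b had 17.7 against 296 CPM (-4.06, interval -4.63 to -3.54), and the spindle factor Tpx2 10.1 against 114 (-3.50, -4.29 to -2.81). Both were compared only through the lower-share group. The hepatocyte enzymes Adh1 and Gsta3 were among the highest, at 2.55 and 2.51, and were compared only through the mitochondria-rich group. Of Kupffer identity genes compared, 19 of 20 were at least 1.5-fold higher, against 30.3% of all genes. The Kupffer panel took 0.685% against 0.331% of non-mitochondrial UMIs (0.564% against 0.289% with the Kupffer-type limit on non-mitochondrial UMIs). The erythroid panel, mostly globin, took 57.1% against 52.2% of summed UMIs, with medians over single barcodes of 60.7% against 59.9%.

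In stellate or fibroblast-type barcodes the ribosomal ratio lay on the other side of 0. Library 2 held 119 mitochondria-rich and 72 lower-share barcodes of this class, at median depths of 1034 and 1157 non-mitochondrial UMIs. None of 78 ribosomal protein genes was below 0 there, against 45.4% of the 1055 genes compared, with medians of 0.51 and 0.09. Of these 1055 genes 65 (6.16%) were at least 2-fold higher and 89 (8.44%) at least 2-fold lower. Their own panel took 1.79% against 3.11% of summed non-mitochondrial UMIs, and the Kupffer panel 0.934% against 0.594% (0.685% against 0.491% with the Kupffer-type limit on non-mitochondrial UMIs). Medians over single barcodes were 1.46% against 1.49% for their own panel, so the gap in the sums was not seen in the typical barcode. For the Kupffer panel the medians were 1.01% against 0.834%. Igfbp5, a binding protein of insulin-like growth factors, had 25.5 against 282 CPM (-3.47, interval -5.42 to -1.99). The lipid-binding protein Fabp4, also made by endothelium, had 356 against 32.2 (3.47, 2.03 to 5.39). Igfbp5 and Fabp4 were each compared only through the group where they stood higher, with 4 UMIs in the other group. In library 1 their panel took 2.29% against 4.13%, and only 34 lower-share barcodes were present, so genes were not compared there.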

How the data were processed

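Liver cells pulled down for F4/80 were measured by droplet RNA sequencing of transcript 3' ends. The deposited values are raw UMI counts, whole numbers for each gene and droplet; the submitters' processing notes name Cell Ranger 3.0.1, R 3.6.1 and build GRCm38.p5, while no annotation release is given in the sources used here. The members and lists were chosen with earlier results of these data known. Barcode suffixes split the matrix into 2 libraries; per library, UMIs were summed over barcodes and scaled to 1000000 non-mitochondrial UMIs. Shares carry Clopper-Pearson, levels Poisson and ratios conditional exact 95% intervals (scipy 1.17.1 and numpy 2.4.6 in Python 3.11.15, with pandas 2.3.3; plots by matplotlib 3.10.9), checked on simulated counts. Lineages needed 3 markers and a panel share of at least 0.5% (endothelial, stellate or fibroblast, plasmacytoid dendritic, neutrophil, megakaryocyte, B or plasma), 0.2% (monocyte, conventional dendritic, T or natural killer) or 10% (erythroid), limits set after the panels had been seen. No doublet caller was run; droplets passing several panels were counted. Named genes were the 12 highest and 12 lowest by the smaller ratio of both libraries, the 5 at each end of 1 library, members of the lists, and a fixed set (Actb, Tmsb4x, Fth1, Ftl1, Marco, Timd4, Vsig4, Hmox1, Slc40a1, Cd74, Lyz2, Ctsb, Apoe and mitochondrial genes). The text gives those with the clearest roles; in other lineages, genes were picked from the 5 at each end.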

Additional observations from a re-analysis of the deposited data

How the results depend on the processing

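Each setting was changed alone. Over 13 alternatives the median of ribosomal proteins stayed below 0 (-0.65 to -0.17 in library 1, -0.79 to -0.49 in library 2), as did that of the respiratory chain, and the hepatocyte panel stayed above 0 (0.30 to 1.11 and 0.68 to 1.51). With 500 genes required, 55.3% of library 1 barcodes were mitochondria-rich, Kupffer-type ones were 68.1% of members in library 1 and 54.2% in library 2, and endothelial-type ones 9.22% in library 1. With shallow shared barcodes kept, 52.9% of library 1 was mitochondria-rich, 4 genes were 2-fold lower there, and Marco (-0.83) and Hmox1 (-0.0431) turned. With members over 30%, 29.2% and 9.33% were members, of which 51.7% and 33.9% were Kupffer-type, 44 and 129 genes were 2-fold higher, and 47 lower in library 2. With a comparison group of at most 10%, 68 and 72 were higher and 9 and 22 lower. Thinned to 500 UMIs, endothelial-type barcodes were 9.68% of members in library 1 and Kupffer-type 46.1% in library 2. With Kupffer-type set on non-mitochondrial UMIs, it took 70.0% and 62.8% of members, endothelial-type 2.63% in library 2, 74 genes were higher in library 2 and 1 and 2 lower; in library 2 the identity median (-0.00768) and Hbb-bs (0.12) turned. At a Kupffer limit of 1.6%, 4 genes were lower in library 1.

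Scaled to all UMIs, mitochondrial ones included, 0 genes were 2-fold higher in either library and 1 and 28 lower. There Marco (-0.13), Hmox1 (-0.0775), Ctsb (-0.20), Psap (-0.15), Cd163 (-0.27), Atf4 and the stress response median (both -0.0881) turned in library 1. In library 2 the medians of all genes (-0.15), Kupffer identity (-0.27), immediate early genes (-0.16) and genes over 2000 coding nucleotides (-0.00159) turned, as did Marco (-0.14), Hmox1 (-0.0380), Slc40a1 (-0.16), Ctsb (-0.0354) and Psap (-0.0563). This scaling moves the ratio of every gene in a library by the same amount. Only values whose main interval lay off 0 were counted as turned. For a median over genes, that interval ran from the median of the genes' lower bounds to the median of their upper bounds. It is not an interval of the median itself. In library 1 the medians of all genes, Kupffer identity and immediate early genes were not counted, though their lowest values over the alternatives were -0.28, -0.31 and -0.28. Scaled by the median ratio, library 2 had 15 higher and 9 lower, and its Kupffer identity (-0.0686), immediate early (-0.0122) and Slc40a1 (-0.0152) values turned. With barcodes weighted equally, 7 and 11 genes were higher and 1 lower in library 2. Between 1000 and 3000 non-mitochondrial UMIs, 6 and 135 were higher and 4 and 61 lower; the stress response median (-0.0310) and Actb (0.0158) turned in library 1, and class II (0.00945), Hbb-bs (0.23), Apoe (0.0490) and Csf1r (0.18) in library 2. From 10 CPM and 10 UMIs, 69 and 135 were higher and 4 and 8 lower. Without barcodes of a second panel, a setting added after the data were seen like the fold of 1.5, 1 gene was lower in library 1 and Hbb-bs (0.28) turned in library 2. At 1.5-fold the counts were 68 and 15 in library 1 and 170 and 91 in library 2. The cause was not tested for any of these. Leaving out a replicate was not possible with 1 sample per library. No paired analysis was possible because each group had 1 sample and no test was run. Depth limits the rare classes, of which several held under 50 barcodes per library.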
